A study of Caenorhabditis elegans with 23 samples.

Results

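The genes described here encode the deadenylases of Caenorhabditis elegans, the nucleases that shorten the poly(A) tails of mRNAs, and subunits of the complexes that carry them. The list holds 8 genes: ccf-1, ccr-4, ntl-2, ntl-3, panl-2, panl-3, parn-1 and parn-2. Of these, 5 were found by name in the gene table of 31753 rows, and ccr-4 and parn-1 were found by the RefSeq accession of their rows, where the table gives ccr-4 no name and parn-1 the clone name K10C8.1. The gene parn-2 has no row of its own: it lies in a merged row of 31 genes and has no value here. All values below therefore cover 7 genes.

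Deadenylation is usually the opening step of mRNA decay and also a means of silencing stored mRNAs. Late oocytes and very early embryos rely on such mRNAs while transcription is off. In the CCR4-NOT complex ccf-1 (the CAF1 homologue) and ccr-4 are the nucleases, and ntl-2 and ntl-3 are the homologues of the non-catalytic subunits NOT2 and NOT3. The PAN2-PAN3 complex has panl-2 as its nuclease-type subunit and panl-3 as the subunit that binds poly(A)-binding protein. The product of parn-1 is a PARN-type ribonuclease, known in the worm for trimming the ends of piRNAs. The opposing enzyme, GLD-2, is a cytoplasmic poly(A) polymerase of the germline, and cpb-3 encodes an RNA-binding protein of the CPEB family.

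Libraries were made by PAT-seq, a directional 3'-end method that reads through the end of an mRNA into its tail. It gives for each gene a read count, the number of reads that carry a tail, and the mean length of those tails in nucleotides (nt). Sequencing run 1 held whole young adult worms of the gld-2(q497) mutant, of the cpb-3(bt17) mutant and of the wild-type strain N2, with 3 libraries each. Run 2 held whole young adult gld-2(q497) worms fed double-stranded RNA, with 2 libraries per target: ccf-1, caf-1 and ccr-4, then panl-2, then parn-1, and the non-targeting control pcb19. RNAi was given by feeding E. coli HT115(DE3), and the worms of run 1 ate E. coli OP50. All RNAi groups, the control included, thus carry the gld-2 mutation. Run 2 also held embryos of N2 at the 1- to 2-cell stage, with 2 libraries. The titles spell the cpb-3 strain cbp-3, a protocol text names N2 for the RNAi feeding, and the labels of the libraries were followed in both cases. No row is named caf-1, so that target has no value of its own. No label says whether libraries of a group are separate cultures. The p-values therefore reflect library-to-library spread, which may be technical.

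Total counts ran from 2.2 M (M, 1e6; control RNAi replicate 2) to 15.95 M, and the median percent of reads with a tail over genes was 86.7 to 94.9% in run 1 and 66.7 to 93.3% in run 2. Library cpb-3 replicate 3 stood apart in run 1 with 34.8% of its counts on ribosomal RNA, and panl-2 RNAi replicate 1 stood apart among the RNAi libraries with 85.1% of its reads tailed, against 53.6 to 72.2% in the others. The row of gld-2 averaged 4.01 ± 1.07 CPM (counts per 1e6 counts) in gld-2 worms and 11.9 ± 0.654 CPM in N2 worms (SD, n = 3 each), and that of cpb-3 averaged 29.3 ± 4.26 CPM in cpb-3 worms and 54 ± 3.43 CPM in N2 worms. It averaged 28 ± 3.18 CPM in gld-2 worms too. The gld-2 row averaged 2.38 to 5.04 CPM in the 6 RNAi groups. Markers of the gonad's contents differed too. All marker shares in this text are percents of the counts outside ribosomal RNA rows. The 9 sperm markers with a row took 0.0664 to 0.0765% of counts in gld-2 worms, 0.00759 to 0.0103% in cpb-3 worms and 0.00122 to 0.00141% in N2 worms. In the control RNAi worms of run 2, which are gld-2 mutants too, they took 0.00783 to 0.00918%, so the gld-2 worms of the 2 runs differed in sperm markers. The 11 oocyte markers took 0.17 to 0.246% in gld-2 worms, 0.325 to 0.517% in cpb-3 worms and 0.462 to 0.493% in N2 worms, and the 8 markers of the meiotic germline took 0.0215 to 0.0258% in gld-2 worms, 0.0257 to 0.0587% in cpb-3 worms and 0.0605 to 0.0698% in N2 worms. The 10 early embryo markers took 0.000284 to 0.000326% in gld-2 worms, with pes-10, end-1, med-1 and tbx-37 at 0 counts, and 0.00283 to 0.00321% in N2 worms. Embryos had 0.133 to 0.155% of counts on 5 muscle markers, against 0.276 to 0.313% in N2 adults. The 7 intestine markers took 1.93 to 2.8% in embryos and 1.71 to 2.19% in N2 adults, although 1 of them, elt-2, had 0 counts in embryos. In these bulk samples fewer cells of a type and less RNA per cell cannot be told apart, and the part of these differences in the results below was not tested.

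In the authors' coordinates (build ce10), 4 of the 7 rows lie on chromosome III: ccf-1 at 11919089 to 11920120 on the minus strand, ntl-3 at 11831369 to 11846361 on the minus strand, panl-2 at 6963857 to 6968021 on the minus strand and panl-3 at 9819216 to 9822347 on the plus strand. The row of ccr-4 spans 12361630 to 12370602 on the plus strand of chromosome IV, that of parn-1 spans 12692524 to 12695237 on the minus strand of chromosome V, and that of ntl-2 spans 4372950 to 4375719 on the minus strand of chromosome II. Each is the extent of a whole gene, so a value sums all its 3' ends. The RefSeq name of the ntl-2 row is now ntl-2.1, and its paralogue is the table's tag-153, so reads shared by the pair could be split between them. The rows ZC518.4 and ZC518.6 lie inside ccr-4 on the opposite strand and had 0 counts in all libraries. The rows of ccf-1 and ntl-3 overlap a merged row on the opposite strand, which had 12467 to 100793 counts per library.

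The 7 genes differed widely in how steady their counts were. Levels are CPM on TMM-scaled library sizes over all 23 libraries, and groups with RNAi against the gene itself are left out of these ranges. The mean of ntl-3 stayed between 94.9 CPM (control RNAi) and 125 CPM (panl-2 RNAi), a ratio of 1.32, and neighbouring groups overlapped all along that order. The mean of ntl-2 lay between 46.4 CPM (gld-2) and 88 CPM (embryo), a ratio of 1.9. The highest group mean was 2.65 times the lowest for panl-3, 3.61 times for ccf-1, 4.44 times for panl-2 and 4.82 times for parn-1. For ccr-4 it was 203 times, between 1.36 CPM in gld-2 worms and 277 CPM in embryos. Groups of runs 1 and 2 differ in more than the run, so these ranges are a description.

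**Figure D1:**
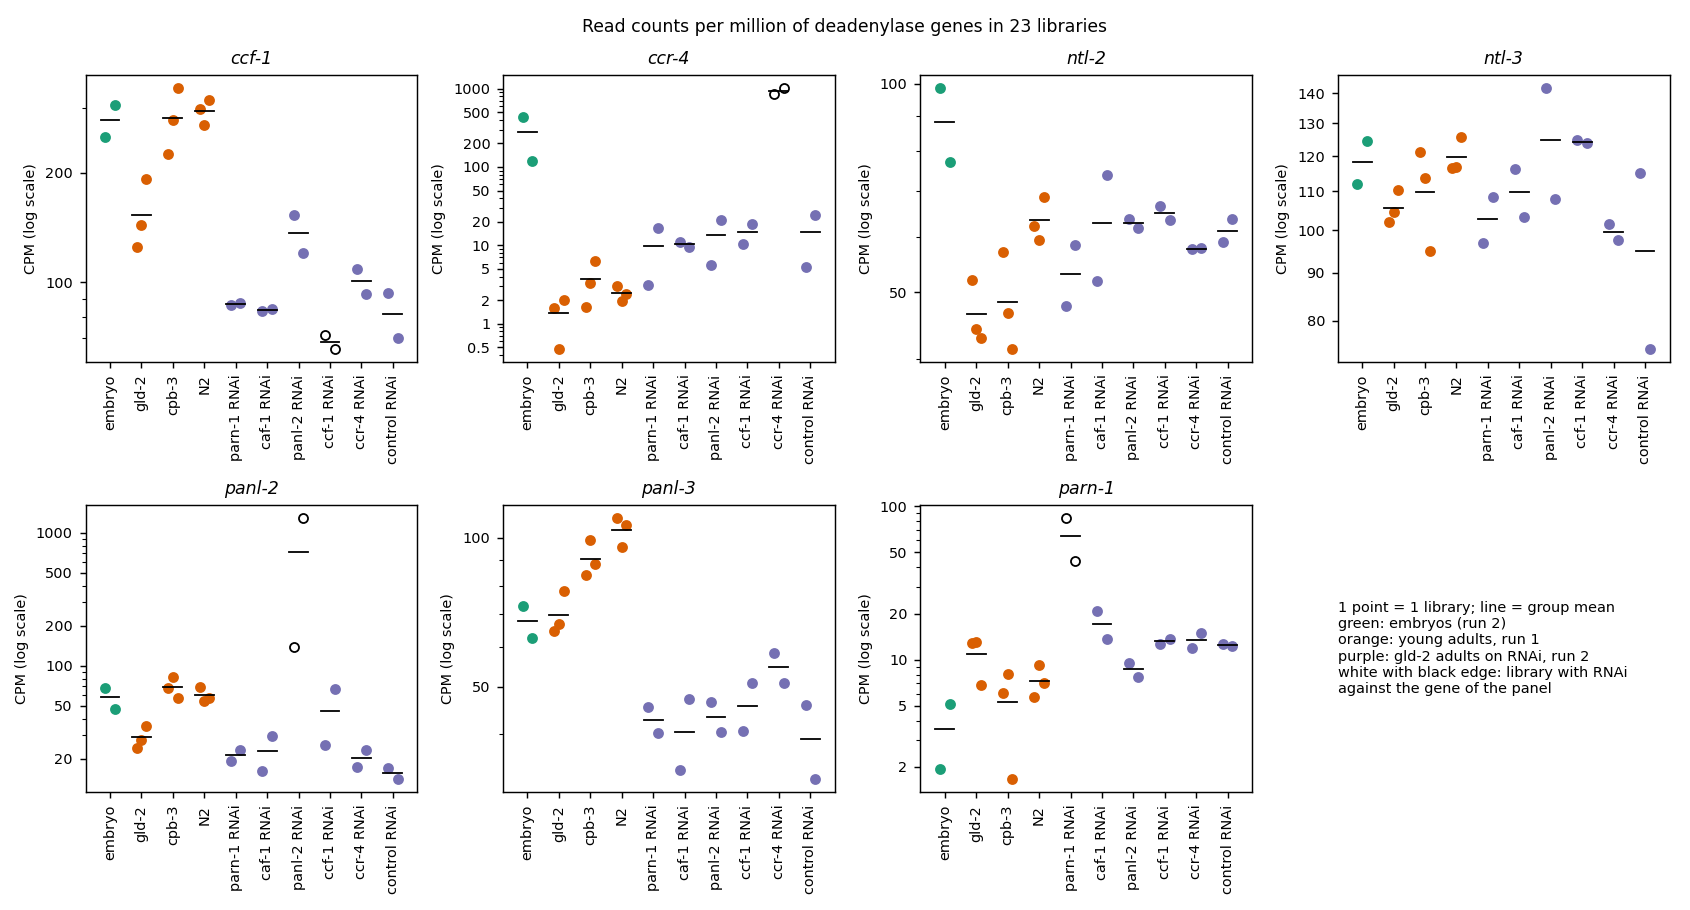
CPM (log scale) of the 7 genes in each of 23 libraries (points), with the mean of each group (line). The panels of ccf-1, panl-2 and panl-3 show lower points in gld-2 than in N2 worms, that of ccr-4 shows embryos at 435 and 118 CPM and ccr-4 RNAi at 857 and 1029 CPM, and that of ntl-3 stays between 74.7 and 142 CPM.

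In the order of the groups, N2 and cpb-3 worms were above gld-2 worms for ccf-1, panl-2 and panl-3. For ccf-1 the means were 295 CPM in N2, 282 CPM in cpb-3 and 279 CPM in embryos, 3 groups whose libraries overlapped, and then gld-2 worms at 125 to 192 CPM. The RNAi groups, which carry the same mutation but had lower shares of sperm markers, followed at 81.7 to 137 CPM, with ccf-1 RNAi last at 68.6 CPM. For panl-2 the means were 68.9 CPM in cpb-3, 60.1 CPM in N2 and 57.7 CPM in embryos, groups that overlapped, followed by ccf-1 RNAi at 46 CPM and gld-2 worms at 29.1 CPM. The control RNAi group was lowest at 15.5 CPM. For panl-3 the order ran from N2 (104 CPM) and cpb-3 (90.4 CPM), which overlapped, to gld-2 (69.9 CPM) and embryos (67.8 CPM), which overlapped too, and to 39.1 to 54.6 CPM in the RNAi groups. For parn-1 the order was another: caf-1 RNAi at 17.1 CPM was highest and embryos at 3.55 CPM were lowest, with N2 at 7.31 CPM. Each of its neighbours in that order overlapped except ccf-1 RNAi (13.2 CPM) and control RNAi (12.5 CPM).

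In gld-2 worms the counts of panl-2, ccf-1 and panl-3 were lower than in N2 worms. The test was edgeR's quasi-likelihood test over 10357 genes with Benjamini-Hochberg adjustment, and a gene was called at an adjusted p under 0.05. It called 3 of the 7 genes, all lower, where it called 28.5% of all genes (13.5% higher and 14.9% lower). The median log2 change of the 7 was -0.55, beside -0.00 over all genes tested. The oocyte markers were lower in the same comparison (10 of 11 called, median -1.30) and the sperm markers higher (7 of 7 tested, median 5.95).

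Both genes of the PAN2-PAN3 pair were called lower. The nuclease-type subunit panl-2 had 24.2, 27.8 and 35.4 CPM in gld-2 worms, against 69.1, 54.4 and 56.9 CPM in N2 worms. Every gld-2 library was below every N2 library, and the log2 change was -1.03 ± 0.19 (SE; adjusted p = 0.000615, edgeR). Its partner panl-3 had 64.8, 66.9 and 77.9 CPM in gld-2 worms, against 110, 95.9 and 106 CPM in N2 worms. These groups did not overlap either, and the log2 change was -0.55 ± 0.15 (adjusted p = 0.0124, edgeR). The panl-3 call was lost without N2 replicate 1, N2 replicate 3, gld-2 replicate 1 or gld-2 replicate 2 (adjusted p = 0.0666, 0.0587, 0.0592 and 0.0581 in that order). Within a library, the ratio of panl-2 to panl-3 counts was 0.37, 0.42 and 0.45 in gld-2 worms, 0.81, 0.83 and 0.64 in cpb-3 worms and 0.63, 0.57 and 0.54 in N2 worms, so the ratio in every gld-2 library was below that in every other library of the run.

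Of the CCR4-NOT genes, ccf-1 was called lower. It had 125, 143 and 192 CPM in gld-2 worms, against 299, 270 and 317 CPM in N2 worms. The groups lay apart, although gld-2 replicate 3 was nearest to N2, and the log2 change was -0.93 ± 0.20 (adjusted p = 0.00239, edgeR). The non-catalytic subunits were not called. The level of ntl-3 was 102, 105 and 110 CPM in gld-2 worms, against 117, 117 and 126 CPM in N2 worms, a log2 difference of -0.16 ± 0.15 (adjusted p = 0.475, edgeR). The level of ntl-2 was 52.1, 44.3 and 43 CPM in gld-2 worms, against 62.4, 59.5 and 68.6 CPM in N2 worms, a log2 difference of -0.43 ± 0.17 (adjusted p = 0.068). In the ratio of ccf-1 to ntl-3 counts, which needs no scaling between libraries, gld-2 worms had 1.22, 1.37 and 1.74, cpb-3 worms had 1.85, 2.45 and 3.60 and N2 worms had 2.56, 2.31 and 2.52. The gld-2 values lay below all others of run 1.

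The remaining nucleases were sparse in run 1. The ccr-4 row had 27, 7 and 13 reads in gld-2 libraries, 15, 45 and 15 in cpb-3 libraries and 27, 19 and 32 in N2 libraries. Its log2 difference between gld-2 and N2 worms was -0.91 ± 0.52 (adjusted p = 0.225, edgeR), so no difference was detectable at this depth. The parn-1 row had 217, 191 and 44 reads in gld-2 libraries, 56, 111 and 4 in cpb-3 libraries and 50, 89 and 95 in N2 libraries. Its log2 difference was 0.62 ± 0.33 (adjusted p = 0.196), the only difference above 0 among the 7.

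**Figure D2:**
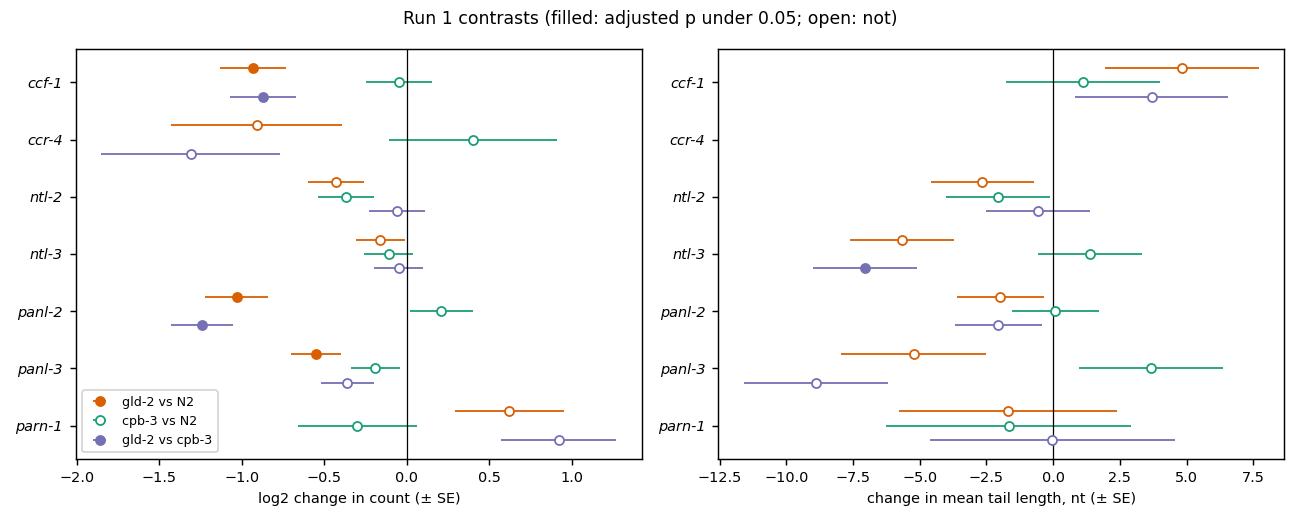
Changes of the 7 genes in the 3 contrasts of run 1, as log2 change in count (left) and change in mean tail length in nt (right), each ± SE, with filled points where the adjusted p was under 0.05. In counts, panl-2 and ccf-1 lie at -1.03 and -0.93 in gld-2 vs N2, and no cpb-3 vs N2 point is filled. In tails, ntl-3 lies at -7.04 nt in gld-2 vs cpb-3, the filled point, and ccr-4 has no point because it had too few tailed reads.

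In the cpb-3 mutant none of these counts was called. Against N2, 0 of the 7 genes were called by edgeR or by DESeq2, where edgeR called 8.78% of all genes (7.09% higher and 1.69% lower) and 1 of the 7, ntl-2, had an unadjusted p under 0.05. The 7 log2 differences ran from -0.37 ± 0.17 (ntl-2, adjusted p = 0.197) to 0.40 ± 0.51 (ccr-4, adjusted p = 0.689). The level of ccf-1 was 224, 278 and 342 CPM in cpb-3 worms, which spans that of N2 worms. The mutants were then compared directly. In gld-2 worms panl-2 was lower than in cpb-3 worms by a log2 change of -1.24 ± 0.19 (adjusted p = 0.000164, edgeR), and ccf-1 by -0.87 ± 0.20 (adjusted p = 0.00364). These 2 of 7 genes were called where 36.4% of all genes were (17% higher and 19.4% lower). The difference for panl-3 was -0.36 ± 0.16 (adjusted p = 0.0812), so the mutants were not shown to differ in panl-3. For parn-1 the difference was 0.92 ± 0.35 (adjusted p = 0.0522, edgeR; 0.0276 with DESeq2), with cpb-3 replicate 3 at 4 reads. For ccr-4 it was -1.31 (adjusted p = 0.0712), and with no filter on low counts both parn-1 and ccr-4 were called (adjusted p = 0.00899 and 0.0166).

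The poly(A) tails of the deadenylase mRNAs were themselves measured. In N2 worms the mean tail was 39.1 ± 1.72 nt for ccf-1, 40.7 ± 5.85 nt for ccr-4, 36.3 ± 1.56 nt for ntl-2, 41 ± 0.496 nt for ntl-3, 31.9 ± 1.43 nt for panl-2, 43.9 ± 2.37 nt for panl-3 and 39 ± 5.65 nt for parn-1 (SD, n = 3 each). The median over 6811 genes was 35.8 to 38 nt in the N2 libraries. Tail lengths were tested with limma, and 6 of the 7 genes had enough tailed reads in run 1. Its variance trend was set on the mean tail length. A trend on the number of tailed reads, tried after the data had been seen, called more genes, and its adjusted p is given where it changes a call.

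The gld-2 worms carry a mutation in a poly(A) polymerase gene, and tails were shorter there over all genes. Limma called 8.11% of 7958 genes (0.126% longer and 7.98% shorter), with a median change of -2.22 nt. With each library centred on its own median tail, it called 68 genes longer and 313 shorter. Of the 6 deadenylase genes 0 were called, and 1, ntl-3, had an unadjusted p under 0.05. Its mean tail was 34.9, 33.4 and 37.6 nt in gld-2 worms, against 41.5, 40.8 and 40.6 nt in N2 worms. The groups did not overlap, and the difference was -5.67 ± 1.95 nt (adjusted p = 0.121, limma). With the trend on reads limma called 1 of the 6, ntl-3 (adjusted p = 0.0248). The tail of panl-3 was 35.5, 39.2 and 41.2 nt in gld-2 worms, against 43.1, 42 and 46.6 nt in N2 worms, a difference of -5.23 ± 2.71 nt (adjusted p = 0.312).

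The ccf-1 tail differed in the other direction. It was 41.8, 40.9 and 49.2 nt in gld-2 worms, against 40.3, 37.2 and 39.9 nt in N2 worms. Every gld-2 value was above every N2 value, and gld-2 replicate 3 was the farthest from N2. The difference of 4.82 ± 2.88 nt was not called (adjusted p = 0.394, limma). After centring, the ccf-1 difference was 7.61 nt (adjusted p = 0.0501).

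Against cpb-3 worms, gld-2 worms had a shorter tail on ntl-3, 1 of 6 genes where 15.1% of all genes were called (0.299% longer and 14.8% shorter; median change -3.52 nt). After centring, limma called 288 genes longer and 437 shorter. The values of ntl-3 were 34.9, 33.4 and 37.6 nt in gld-2 worms and 40.9, 43.3 and 42.8 nt in cpb-3 worms. The groups did not overlap, and the change was -7.04 ± 1.95 nt (adjusted p = 0.0402, limma). The call was lost without gld-2 replicate 1 or 2 (adjusted p = 0.126 and 0.147), without cpb-3 replicate 1 or 2 (0.0528 and 0.0942), and after centring, where the difference was -3.27 nt (0.224). For panl-3 the values were 35.5, 39.2 and 41.2 nt in gld-2 worms and 50.5, 47.3 and 44.8 nt in cpb-3 worms. These lay apart as well, but the difference of -8.90 ± 2.70 nt was not called (adjusted p = 0.0556, limma; 0.00625 with the trend on reads). After centring, the only one of the 6 called was ccf-1, longer by 7.45 nt in gld-2 worms (adjusted p = 0.0397). Between cpb-3 and N2 worms limma called 0 of 7991 genes and 0 of the 6 (0% called) with either trend, while 689 genes and none of the 6 had an unadjusted p under 0.05.

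Most reads of these mRNAs carried a tail in run 1. The pooled share was 96.4% for ccf-1, 97.9% for panl-2, 98.2% for panl-3, 94.7% for ntl-2 and 89.7% for ntl-3, beside a median of 91.2% over the 6494 rows with at least 500 reads in run 1. For ccr-4 it was 71%, of only 200 reads (95% exact binomial interval 64.2 to 77.2%). All 857 reads of parn-1 were tailed (lower bound of the interval 99.6%), and 8 of those 6494 rows, 0.123%, had no untailed read. Intervals cover counting error only. In gld-2 against N2 worms limma called 0 of 7 shares and 0 of 8235 genes (0% called; 224 at an unadjusted p under 0.05). Between cpb-3 and N2 worms 0 of 7 were called where 0.0121% of genes were, and between gld-2 and cpb-3 worms 0 of 7 where 2.68% were, all of them higher. These all-gene counts, 1 and 224, rested on single libraries. Between cpb-3 and N2 worms 1350 genes were called without cpb-3 replicate 1, 466 without N2 replicate 1, 193 without cpb-3 replicate 3 and 7 without cpb-3 replicate 2. Between gld-2 and cpb-3 worms 1201 were called without cpb-3 replicate 1, and 0 without cpb-3 replicate 2, without any 1 of the gld-2 libraries or with the replicate block. In cpb-3 against N2 worms ntl-2, ntl-3 and ccr-4, 3 of the 7, had an unadjusted p under 0.05, and in gld-2 against cpb-3 worms ccr-4 did. The widest gaps were those of ccr-4, at 54.8 ± 8.98% in cpb-3 worms, against 84.1 ± 13.9% in N2 worms (adjusted p = 0.0848, limma) on 15 to 45 reads in cpb-3 libraries, and at 87.8 ± 11.3% in gld-2 worms (33.02 ± 8.74 points above cpb-3 worms, adjusted p = 0.0773).

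The RNAi libraries compare gld-2 worms fed RNA against a deadenylase with gld-2 worms on control RNAi. Reads on the row of a target may come from the RNAi construct, so they measure neither knockdown nor expression. In 3 of the 4 targets that have a row, the count on the target's own row was above control RNAi. The ccr-4 row had 857 and 1029 CPM in ccr-4 RNAi, against 5.32 and 24.6 CPM in control RNAi. The panl-2 row had 137 and 1290 CPM in panl-2 RNAi, against 16.9 and 14.1 CPM in control RNAi. The parn-1 row had 84 and 43.9 CPM in parn-1 RNAi, against 12.7 and 12.3 CPM in control RNAi.

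None of these was called by edgeR, which called 0 of 9908 genes (0%) in each of the 5 RNAi comparisons, with 1582 (panl-2), 657 (ccf-1), 258 (ccr-4), 228 (caf-1) and 124 (parn-1) genes at an unadjusted p under 0.05. The log2 differences on the target's own row were 6.08 ± 0.97 for ccr-4 (adjusted p = 0.713), 5.61 ± 0.96 for panl-2 (adjusted p = 0.136) and 2.34 ± 0.36 for parn-1 (adjusted p = 0.309). DESeq2 called all 3, with adjusted p = 3.58e-05, 1.3e-05 and 0.000187 in that order. Over all genes it called 170 in panl-2 RNAi, 8 in ccf-1 RNAi, 1 each in ccr-4 and parn-1 RNAi and 0 in caf-1 RNAi.

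The reads on a target's row differed in more than number. On the panl-2 row the mean tail was 23.2 and 11.9 nt in panl-2 RNAi, against 32.8 and 35.2 nt in control RNAi, and the library with the higher count had the shorter tail. That difference was -16.47 ± 4.77 nt (adjusted p = 0.28, limma). On the ccr-4 row it was 29.9 and 15.3 nt in ccr-4 RNAi, against 23.1 and 19.3 nt in control RNAi, which overlap. On the parn-1 row it was 30.5 and 25.9 nt in parn-1 RNAi, against 31.8 and 33.9 nt in control RNAi. On the parn-1 row the untailed reads differed: 101 of 485 and 155 of 553 reads lacked a tail in parn-1 RNAi, against 1 of 91 and 0 of 28 in control RNAi. Its tailed share was 79.2 and 72% in parn-1 RNAi, while the other 12 libraries of run 2 had at least 98.3%, with 6 untailed reads of 971 in all. The difference from control RNAi, -23.88 ± 4.06 percentage points, was not called (adjusted p = 1, limma), in a fit where 0 of 7456 genes were and 114 had an unadjusted p under 0.05.

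**Figure D3:**
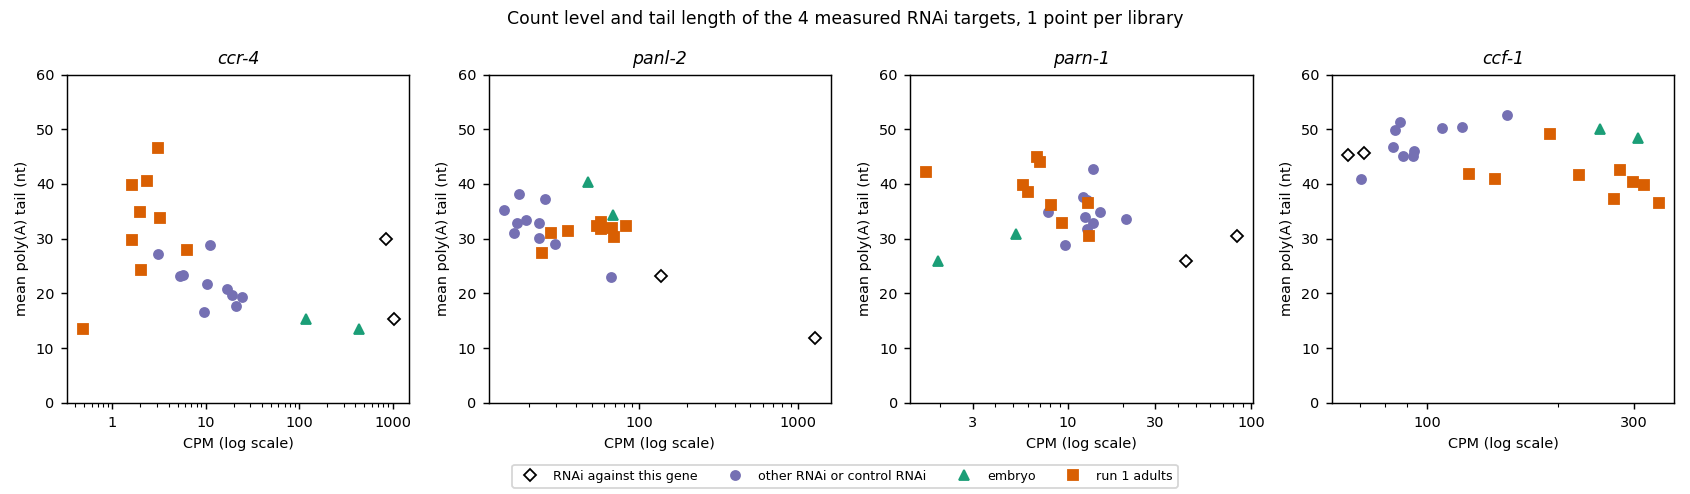
Mean tail length in nt against CPM (log scale) on the rows of the 4 measured RNAi targets, with 1 point per library. Open diamonds are libraries with RNAi against the gene of the panel: they lie to the right for ccr-4, panl-2 and parn-1 (857 and 1029, 137 and 1290, 84 and 43.9 CPM) and at the left edge for ccf-1 (71.5 and 65.6 CPM).

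The row of ccf-1 behaved differently from those of the other targets. It had 71.5 and 65.6 CPM in ccf-1 RNAi, against 93.1 and 70.3 CPM in control RNAi, groups that overlap, with a log2 difference of -0.27 ± 0.22 (adjusted p = 0.918, edgeR). Its ratio to ntl-3 counts was 0.57 and 0.53 in ccf-1 RNAi, against 0.81 and 0.94 in control RNAi. The ccf-1 RNAi ratios were the 2 lowest of the 23 libraries. The level of ntl-3 was 125 and 124 CPM in ccf-1 RNAi, against 115 and 74.7 CPM in control RNAi, so both genes entered the lower ratio. In caf-1 RNAi the ccf-1 row had 83.5 and 84.5 CPM, both between the control values, with a log2 difference of -0.01 ± 0.22 (adjusted p = 1).

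**Figure D4:**
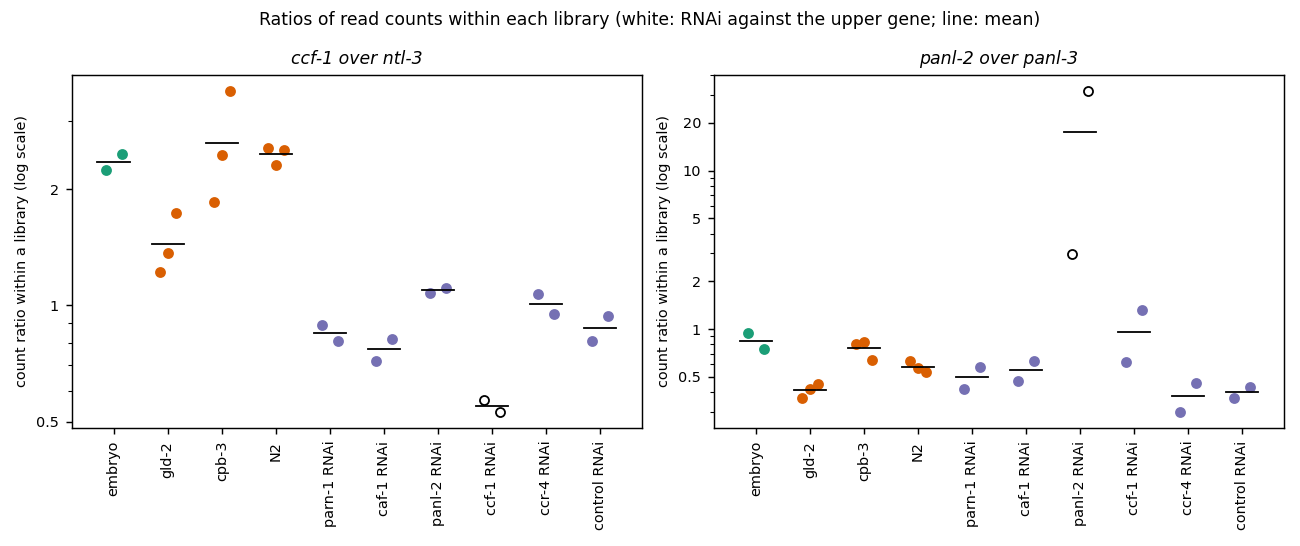
Ratio of read counts within each library (log scale) for ccf-1 over ntl-3 (left) and panl-2 over panl-3 (right), with lines at group means and open points for RNAi against the upper gene. In gld-2 worms the ratios were 1.22 to 1.74 and 0.37 to 0.45, and in N2 worms 2.31 to 2.56 and 0.54 to 0.63. The lowest ccf-1 over ntl-3 ratios were those of ccf-1 RNAi (0.57 and 0.53), where ntl-3 had 125 and 124 CPM, against 115 and 74.7 CPM in control RNAi.

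Away from the target's own row, no deadenylase count was called. Neither edgeR nor DESeq2 called any of the other genes in the 5 comparisons, and the only unadjusted p under 0.05 by edgeR was that of ccf-1 in panl-2 RNAi. There ccf-1 averaged 137 ± 23.1 CPM, against 81.7 ± 16.1 CPM in control RNAi (SD, n = 2 each), groups that did not overlap. The log2 difference was 0.80 ± 0.22 (adjusted p = 0.166), and replicate 1, the higher library of panl-2 RNAi, is the one that stood apart in its tailed share. In ccf-1 RNAi the panl-2 row had 25.3 CPM in replicate 1 and 66.7 CPM in replicate 2, against 16.9 and 14.1 CPM in control RNAi. The groups did not overlap, and the log2 difference was 1.55 ± 0.83 (adjusted p = 0.815, edgeR). Its mean tail was 37.3 nt in replicate 1 and 23 nt in replicate 2, so the higher count again came with the shorter tail. The libraries with RNAi against panl-2 were sequenced in the same run, and their part in these panl-2 reads was not tested.

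Tails were longer over all genes in ccf-1 RNAi: limma called 769 of 6678 (11.5%; 11.4% longer and 0.15% shorter), and the median change was 5.31 nt. After centring it called 0 of these genes, and it called 0 without ccf-1 RNAi replicate 2 or control RNAi replicate 2, 218 without control RNAi replicate 1 and 444 without ccf-1 RNAi replicate 1. Of the 7 deadenylase genes 0 were called, and 2, panl-3 and parn-1, had an unadjusted p under 0.05. The trend on reads called 1345 genes and 1 of the 7, panl-3. The tail of panl-3 was 50.3 and 50.7 nt in ccf-1 RNAi, against 39.4 and 41.8 nt in control RNAi. The groups lay apart, and the difference was 9.86 ± 3.22 nt (adjusted p = 0.0701, limma; 0.0137 with the trend on reads; 0.456 and 4.37 nt after centring).

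The CCR4-NOT genes were not called in ccf-1 RNAi. The tail of ntl-3 was 44.8 and 43.3 nt in ccf-1 RNAi, against 37.5 and 35.7 nt in control RNAi, a difference of 7.42 ± 3.37 nt (adjusted p = 0.156, limma). That of ntl-2 was 38.3 and 42.9 nt in ccf-1 RNAi, against 33.6 and 34.9 nt in control RNAi (6.32 ± 3.31 nt, adjusted p = 0.212). After centring these were 1.92 nt for ntl-3 and 0.82 nt for ntl-2. The difference for ccf-1 itself was 1.99 ± 3.75 nt and that for ccr-4 was -0.49 ± 5.03 nt. Outside CCR4-NOT, it was 7.05 ± 3.07 nt for parn-1 and -3.86 ± 4.77 nt for panl-2. The median of the 7 was 6.32 nt, beside 5.31 nt over all genes. The oocyte markers took 0.397 to 0.516% of counts in ccf-1 RNAi and 0.203 to 0.261% in control RNAi, the 8 meiotic germline markers took 0.0291 to 0.0412% in ccf-1 RNAi and 0.0177 to 0.0188% in control RNAi, and their part in these differences was not tested.

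In the other RNAi comparisons limma called 0 of the 7 tails and 0% of all genes, with 717 (panl-2), 398 (ccr-4), 288 (caf-1) and 249 (parn-1) genes at an unadjusted p under 0.05. Among the 7 only the panl-2 row in panl-2 RNAi had such a p. The trend on reads called 46 genes in panl-2 RNAi and 0 in the others, and none of the 7. The tail of panl-3 was 46.2 and 45.2 nt in panl-2 RNAi and 48.6 and 43 nt in ccr-4 RNAi, against 39.4 and 41.8 nt in control RNAi. These differences were 5.05 ± 3.22 nt in panl-2 RNAi (adjusted p = 0.629) and 5.17 ± 3.22 nt in ccr-4 RNAi (adjusted p = 0.757). Without panl-2 RNAi replicate 2, which leaves the library that stood apart, 1829 of 7508 shares were called in panl-2 RNAi, ntl-3 among them. With all libraries limma called 0 of the 7 shares and 0% of all genes in each of the 5 comparisons, with 131 (caf-1), 1268 (panl-2), 209 (ccf-1) and 93 (ccr-4) genes at an unadjusted p under 0.05. All 5 comparisons share the same 2 control libraries.

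**Figure D5:**
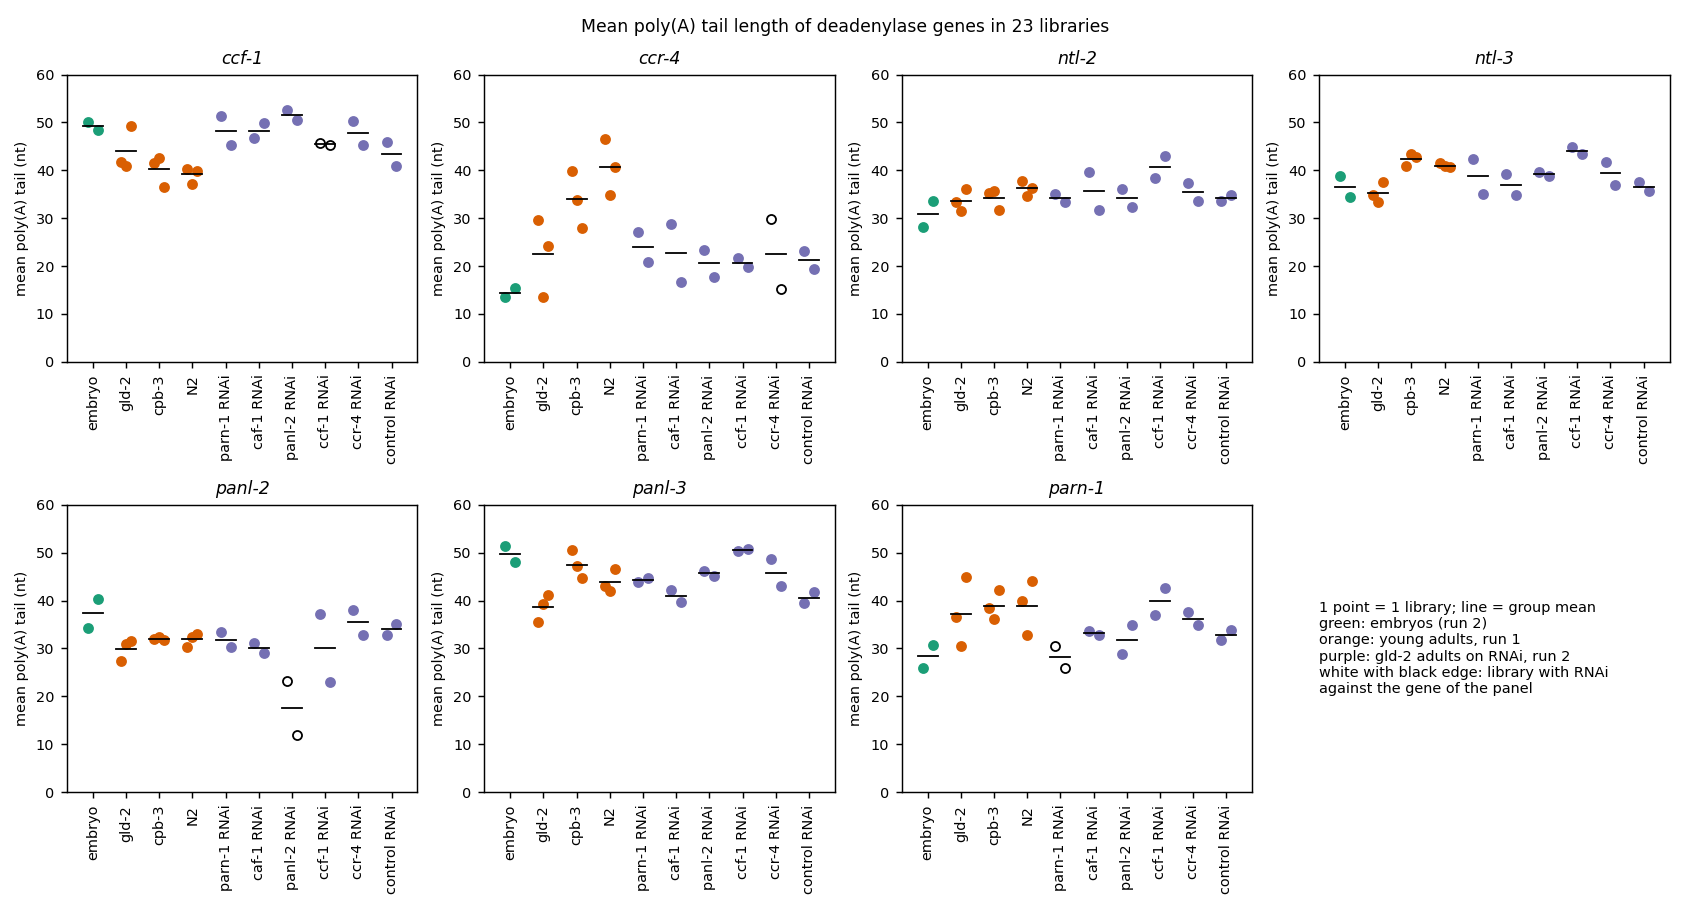
Mean poly(A) tail length in nt of the 7 genes in each of 23 libraries (points), with group means (lines). The tail of ccr-4 is 13.5 and 15.4 nt in embryos and 34.8 to 46.6 nt in N2 adults, and that of panl-3 is 50.3 and 50.7 nt in ccf-1 RNAi and 39.4 and 41.8 nt in control RNAi.

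Embryos at the 1- to 2-cell stage, which hold mostly maternal mRNA, differed from N2 adults above all in ccr-4. The ccr-4 row had 435 and 118 CPM in embryos (1793 and 502 reads), against 3.06, 1.97 and 2.37 CPM in N2 adults (27, 19 and 32 reads). The log2 change was 6.83 ± 0.53 (adjusted p = 9.27e-05, edgeR), and embryo replicate 1 had the higher level. The tails were short in both embryo libraries, 13.5 and 15.4 nt, against 46.6, 34.8 and 40.6 nt in N2 adults on 19 to 25 tailed reads each. The groups lay far apart, but the difference of -26.18 ± 3.65 nt was not called (adjusted p = 0.099, limma; 0.0178 with the trend on reads). Without embryo replicate 1 or 2 it was -25.24 and -27.12 nt in that order. Those fits hold 1 embryo library each, so they do not measure the spread among embryos. The fit of 5 libraries called 0 of 6442 genes (0%), with 1471 at an unadjusted p under 0.05. The stage and the sequencing run cannot be told apart in this comparison. Within run 2 the ccr-4 row was also highest in embryos among libraries without ccr-4 RNAi, at 3.12 to 24.6 CPM in the other 10, and the change against control RNAi was 4.33 ± 0.79 (adjusted p = 0.00925, edgeR; 0.293 with no filter on low counts). The mean tail on that row was 16.7 to 28.8 nt in those 10 libraries. The libraries with RNAi against ccr-4 were sequenced in the same run, and their part in the embryo counts was not tested.

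The other CCR4-NOT and PAN2-PAN3 genes differed less between embryos and N2 adults. In all, 3 of 7 genes were called against N2 adults, where 34.4% of all genes were (16.1% higher and 18.3% lower). The level of ntl-2 was 98.8 and 77.2 CPM in embryos, against 62.4, 59.5 and 68.6 CPM in N2 adults (log2 change 0.48 ± 0.16, adjusted p = 0.0435, edgeR), a call lost without any 1 of the N2 libraries or without embryo replicate 1 (adjusted p = 0.0906 to 0.209). The level of panl-3 was 72.8 and 62.7 CPM in embryos, against 110, 95.9 and 106 CPM in N2 adults (-0.61 ± 0.15, adjusted p = 0.0148), lost without N2 replicate 1 or N2 replicate 3 (adjusted p = 0.0581 and 0.0779). The differences of ccf-1 (-0.07 ± 0.14), ntl-3 (-0.01 ± 0.13) and panl-2 (-0.05 ± 0.20) were not called. The parn-1 row had 8 and 22 reads in embryos (1.94 and 5.16 CPM), against 5.68, 9.21 and 7.05 CPM in N2 adults. Its difference of -1.03 ± 0.47 was not called (adjusted p = 0.121), and without embryo replicate 2, which leaves 1 embryo library, it was -1.91. Against the gld-2 adults on control RNAi of the same run, embryos had more panl-2 (1.85 ± 0.32, adjusted p = 0.00737), ccf-1 (1.74 ± 0.25, adjusted p = 0.00415) and ccr-4, 3 of 7 genes where 18.2% of all genes were called (10.2% higher and 8.03% lower). For parn-1 that difference was -1.83 ± 0.59 (adjusted p = 0.0592), called with no filter on low counts (0.0354). Without embryo replicate 2, which leaves 1 embryo library, it was -2.70. In the same comparison 9 of 11 oocyte markers were called higher (median 1.05) and 4 of 5 muscle markers lower (median -1.12). The oocyte markers took 0.645 to 0.832% of counts in embryos and 0.203 to 0.261% in control RNAi, and the part of these differences was not tested. Embryos and control RNAi worms differ in strain, feeding and stage.

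The tail of ccf-1 was 50.1 and 48.4 nt in embryos, against 40.3, 37.2 and 39.9 nt in N2 adults. Every embryo value was above every N2 value, but the difference of 10.13 ± 2.34 nt was not called (adjusted p = 0.11, limma; 0.0151 with the trend on reads). Limma thus called 0 of the 7 tails, and 3, ccf-1, ccr-4 and parn-1, had an unadjusted p under 0.05. With the trend on reads it called 2 of the 7 and 406 genes. Within run 2 the ccf-1 tail differed from control RNAi by 5.79 ± 4.50 nt (adjusted p = 0.581). There limma called 0 of the 7 and 0% of all genes, with 855 genes and 1 of the 7, ccr-4, at an unadjusted p under 0.05, and the trend on reads called 215 genes and 0 of the 7.

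The tailed share of ntl-2 was 75.7 and 84.5% in embryos, against 94.2, 96.5 and 97.5% in N2 adults (change -15.99 ± 3.13 points, adjusted p = 0.0263, limma), and that of ntl-3 was 82 and 85.5% in embryos, against 90.9, 94 and 93.9% in N2 adults (-9.19 ± 1.77 points, adjusted p = 0.0253). These 2 of 7 were called where 30.8% of all genes were (0.217% higher and 30.6% lower), and the median change over all genes was -9.92 points. Without N2 replicate 2, N2 replicate 3 or embryo replicate 2 the all-gene count was 323, 378 and 3450 in that order, against 2131, and with the replicate block it was 0. With each library centred on its median, 1160 genes were called higher and 1276 lower, against 15 and 2116. The ntl-3 difference was 1.88 points and that of ntl-2 was -4.92 points (adjusted p = 0.336 and 0.107). Without N2 replicate 2 or N2 replicate 3 neither was called (adjusted p = 0.113 to 0.116), without N2 replicate 1 ntl-2 was not (0.0689), and without embryo replicate 1 ntl-3 was not (0.0529). Within run 2, 0 of 7 shares and 0% of all genes were called by limma (760 at an unadjusted p under 0.05).

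The other genes of the pathway come from 5 lists. These are further CCR4-NOT and deadenylase-related genes (6 of 10 names have a row), recruiters of deadenylases (16 of 18), poly(A)-binding proteins (3 of 3), cytoplasmic poly(A) polymerases and their partners (9 of 11) and decapping and decay genes (11 of 18). The bracketed counts are of listed names matched to an unmerged row, so a name without a row need not be a missing gene. In gld-2 against N2 worms, edgeR called 0 of 6 further CCR4-NOT and deadenylase-related genes, among them let-711, the NOT1 scaffold (97.8 CPM in gld-2 worms and 90.5 CPM in N2 worms), and ntl-9, the CNOT9 homologue (161 CPM in gld-2 worms and 165 CPM in N2 worms). None of the 6 had an unadjusted p under 0.05, DESeq2 called 0 too, and their median log2 difference was 0.06. The tail of ntl-9 was 35.2 nt in gld-2 worms and 42.5 nt in N2 worms, a difference of -7.29 ± 2.11 nt (adjusted p = 0.0693, limma). Limma called 0 of the 6 tails, with 4 at an unadjusted p under 0.05 and 1 called with the trend on reads.

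Genes of proteins that bring deadenylases to mRNAs, chiefly PUF, Nanos and zinc-finger regulators of the germline, had lower counts in gld-2 worms for 9 of 15 tested, and 0 had higher ones, where edgeR called 14.9% of all genes lower. Examples were nos-2, a Nanos homologue of the germline (31.2 ± 10 CPM in gld-2 worms and 140 ± 2.5 CPM in N2 worms, log2 change -2.13 ± 0.20, adjusted p = 9.94e-07, edgeR), puf-5, a PUF repressor of oocytes (-1.89 ± 0.19), and pos-1, a zinc-finger regulator of maternal mRNA (-1.30 ± 0.18). Their tails were shorter in 6 of 14, where 7.98% of all genes had shorter tails, with puf-3 at 22.4 nt in gld-2 worms and 39.1 nt in N2 worms, pos-1 at 22.1 nt in gld-2 worms and 36.5 nt in N2 worms, and puf-11 at 24.9 nt in gld-2 worms and 39 nt in N2 worms. The genes puf-5 and pos-1 are also on the oocyte marker list.

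The list of cytoplasmic poly(A) polymerases and their partners also holds gld-1 and poly(U) polymerases. Counts were lower for 6 of its 9 tested genes, which include the mutated gene gld-2 itself, where 14.9% of all genes were lower. Among them were gld-1, a KH-domain repressor of the germline (-1.87 ± 0.18, adjusted p = 1.06e-06, edgeR), and pup-3, a poly(U) polymerase (-1.86 ± 0.24, adjusted p = 2.58e-05). The tails of 4 of 9 were shorter, where 7.98% of all genes were, pup-2, gls-1 and gld-3 among them (-14.01, -10.19 and -12.78 nt in that order). Of the decapping and decay genes 3 of 11 were lower, patr-1 (-0.94 ± 0.21, adjusted p = 0.00254), lsm-4 and lsm-3, and 3 of 11 had shorter tails, edc-3, ifet-1 and patr-1. Of 3 poly(A)-binding proteins pabp-2, the nuclear one, was lower (-0.71 ± 0.15, adjusted p = 0.00222). Limma called 0 of the 3 tails of that list, with 1 at an unadjusted p under 0.05 and 1 called with the trend on reads. With that trend the tail counts of the recruiters, polymerase genes and decapping genes were again 6, 4 and 3, while more of all genes were called than in the main fit. In ccf-1 RNAi limma called longer tails for 6 of 12 recruiters, 2 of 7 polymerase genes and 5 of 11 decapping genes, where 11.4% of all genes were called longer. With the trend on reads these counts were 6, 5 and 8, in a fit that also called more of all genes, as given above. Centring removes a shift common to all genes, and after it 0 of 6678 genes were called. No gene was thus shown to differ beyond that common shift. Limma called none of the 7 deadenylase genes, the 6 further CCR4-NOT genes or the 3 poly(A)-binding proteins, which had 2, 1 and 0 genes at an unadjusted p under 0.05.

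The genes whose levels ran most like each deadenylase gene were found by Pearson's r of log2(CPM + 1) over group means, among 2420 candidates. The points share libraries and runs, so r is a description. For ccf-1 they were lem-2 and dhfr-1 (r = 0.99 and 0.99, 9 groups), for panl-2 flh-1 and trcs-2 (0.98 and 0.97, 9 groups) and for panl-3 tomm-40 and mdt-26 (0.97 and 0.97, 10 groups). For parn-1 they were ears-1 and mrps-30 (0.97 and 0.96, 9 groups), which like parn-1 had their lowest means in embryos or cpb-3 worms. For ccr-4 they were aipl-1 and dylt-1 (0.97 and 0.96, 9 groups), both highest in embryos, which set the range of ccr-4. For ntl-2 gop-2 and sftb-6 were nearest (0.91 and 0.91, 10 groups), and for ntl-3, which varied least, klp-18 and hars-1 (0.88 and 0.78, 10 groups).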

How the data were processed

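PAT-seq libraries, 23 in 10 groups, were grouped by their labels. Per the labels' protocols, tagged 3' ends were fragmented with RNase T1 and size-selected, so long tails may be lost. The deposited tables hold read counts, counts of tailed reads and a mean tail length per gene row, in nucleotides, which is held as a score in the authors' file. Bowtie, Bowtie2 2.2.4 and ce10 are named in the submitters' processing notes. The methods of read counting and tail measurement, not given in the sources used here, could shift all values.

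Counts were tested with edgeR 4.0.16 (R 4.3.3; quasi-likelihood, robust, TMM, filterByExpr) and tails and tailed shares with limma 3.58.1 (robust, with a variance trend on mean tail length or on mean log2 count), where a value needed 5 reads and a gene a mean of 20. The SE of a log2 change is the change divided by the square root of its F statistic. The 9 libraries of run 1, the 12 RNAi libraries, embryos with N2 (5) and embryos with control RNAi (4) were fitted apart. CPM levels were scaled over all 23 libraries. In the tail fits, parn-1 of cpb-3 replicate 3 (4 reads) was missing. Names came by accession from a RefSeq table of another build. The fits were run on simulated data with changes larger than most of those reported here, which does not show their power for smaller ones.

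The members, lists and rule for named genes (members, perturbed genes, up to 3 per list with the smallest adjusted p in gld-2 against N2, and 2 most alike per member) were chosen with earlier results of these data known, and ntl-9 and let-711 were added after their values were seen. A variance trend on the number of tailed reads gives the all-gene tail counts of an earlier processing of these data. It was set aside for the trend that the test plan names, after the results of both were known. Alternatives were RLE scaling, DESeq2 1.42.0, no filter, no ribosomal RNA rows, other read minimums, that trend, centring, log2 odds, the replicate number as a block and each library left out.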

Additional observations from a re-analysis of the deposited data

How the results depend on the processing

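The counts below are of deadenylase genes called. Over all genes the main fits called 36.4% in gld-2 against cpb-3 counts and 15.1% in its tails. They called 11.5% in ccf-1 RNAi tails and 0% in parn-1 RNAi counts. For embryos against N2 they called 34.4% in counts and 30.8% in shares. An alternative given without its own all-gene count shows only how calls moved, not a result about these genes. Counts of panl-2 and ccf-1 were called lower in gld-2 against N2 and against cpb-3 worms in all 11 alternatives each, with log2 changes of -1.41 to -0.70. No tail call held under all alternatives. With the trend on tailed reads, added after seeing the data, tail calls came to 1 in gld-2 against N2, 2 in gld-2 against cpb-3, 1 in ccf-1 RNAi and 2 in embryos against N2, and over all genes to 905, 1543, 1345 and 406, against 645, 1215, 769 and 0. A minimum of 20 tailed reads gave 2 in gld-2 against cpb-3 and 1 in ccf-1 RNAi, and no minimum of mean reads gave 0 in gld-2 against cpb-3. Centring turned the all-gene split of gld-2 against N2 tails to 68 longer and 313 shorter, against 10 and 635, and called 0 genes in ccf-1 RNAi and 725 in gld-2 against cpb-3. With no filter on low counts 4 genes were called in gld-2 against cpb-3 (panl-2, ccf-1, ccr-4 and parn-1) and 1 in parn-1 RNAi. DESeq2 called 1 each in parn-1, panl-2 and ccr-4 RNAi, the target's own row. In tailed shares of embryos against N2, log2 odds gave 4 and centring gave 1, ccf-1, whose sign turned (6.79 points, adjusted p = 0.0288), as did that of ntl-3 (1.88 points).

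The same replicate numbers were not shown to pair libraries: correlations of deviations ran from -0.17 to 0.18 in run 1 and, with 2 libraries a group, from 0.08 to 0.16 in run 2. With the replicate block, 4 genes were called in gld-2 against cpb-3 counts and 0 in its tails, and in embryos against N2 1 in counts (ccr-4) and 0 in shares; tail calls over all genes came to 240 in gld-2 against N2 and 716 in gld-2 against cpb-3.

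Leaving out 1 library gave 2 to 4 calls in gld-2 against cpb-3 counts, 0 to 2 in its tails, 0 to 1 in panl-2 RNAi counts and 0 to 1 in its tailed shares. For embryos against N2 it gave 1 to 4 in counts, 0 to 2 in tails and 0 to 3 in shares. Over all genes it gave 120 to 611 tail calls in gld-2 against N2 and 394 to 1664 in gld-2 against cpb-3, and in counts 380 to 1335 calls in cpb-3 against N2 and 1541 to 4454 in embryos against N2. A group left with 1 library was taken to vary like the others. Of 1734 values called in neither fit, 214 changed sign and were counted as no change. The low counts of ccr-4 and parn-1 in run 1 limit what was detectable there.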

Other observations

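The parn-1 row stood out in run 1 for having no untailed read among 857, and in run 2 outside parn-1 RNAi it had 6 of 971, a share of 99.4% tailed (95% exact interval 98.7 to 99.8%). In the 2 libraries of parn-1 RNAi 256 of 1038 reads were untailed, a share of 75.3% tailed (72.6 to 77.9%). Pooled in the same way, the panl-2 row had 94.6% of its reads tailed in panl-2 RNAi and 93.8% in the other libraries of run 2, the ccr-4 row had 77.6% and 83%, and the ccf-1 row had 86.5% and 91.4%. The other libraries include embryos, which gave 2295 of the 3124 ccr-4 reads in that pool. In control RNAi alone the tailed share was 44.7 and 76.8% for ccr-4 and 89.9 and 82.5% for ccf-1. Reads within a library are not independent samples, so these shares were not tested further.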
